A study of Mus musculus with 6 samples.

Results

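The genes that build the nuclear pore and carry cargo through it were examined in mouse embryonic fibroblasts after knockdown of hexokinase 2. Members were chosen by name from the deposited table: protein-coding genes whose symbol is Nup, Kpna, Kpnb, Ipo, Xpo (without Xpo5) or Tnpo followed by a number, with Tpr, Pom121, Ndc1, Aaas, Rae1, Seh1l, Sec13, Ran, Rangap1, Ranbp1, Ranbp2, Rcc1, Cse1l and Ahctf1. This gave 56 of the 22355 genes in the table, 30 of them pore proteins and 26 transport receptors or genes of the Ran cycle. The cells (MEFs) are connective tissue cells cultured from mouse embryos, and they formed 2 groups of 3 libraries each. The siHk2 group was transfected with siRNA (short RNA that directs cleavage of matching mRNA) to Hk2, the hexokinase that phosphorylates glucose as it enters glycolysis, and the siControl group with a negative control siRNA. The labels give neither the age nor the strain of the embryos, nor the time between transfection and harvest. mRNA was captured by its poly(A) tail for all 6 libraries. The siHk2 libraries are numbered 1, 2 and 3, and the siControl libraries 4, 5 and 6, as in the table.

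The nuclear pore complex is a ring-shaped channel through the nuclear envelope. A scaffold of an inner ring and outer rings, held to the membrane by anchoring proteins, surrounds a channel filled with unstructured nucleoporins rich in phenylalanine-glycine (FG) repeats. Importins and exportins bind these repeats and carry proteins through. Their direction of travel is set by the small GTPase Ran, which is loaded with GTP by Rcc1 on chromatin and made to hydrolyse it by Rangap1 at the cytoplasmic face. In dividing cells such as fibroblasts the pores are taken apart at mitosis and rebuilt afterwards, and several members also act on kinetochores or the spindle.

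Levels are TPM (transcript abundance scaled to one fixed total per library and corrected for transcript length), so levels of different genes can be set side by side. TPM does not retain read numbers, and the depth of each library is therefore unknown. The labels do not say whether replicates were grown as separate cultures, so p-values reflect the spread among these 6 samples only, and that spread may be technical. Hk2 had 22.4, 21.4 and 21.8 TPM in the siHk2 libraries, against 57.1, 62.5 and 58.9 TPM in the siControl libraries. Every siHk2 library thus lay below every siControl library for the targeted gene, by 63.2% on the means. Of 10 fibroblast markers, 7 reached a mean of 1 TPM, with summed levels of 3549 to 3836 TPM in siHk2 and 3798 to 3881 TPM in siControl; Thy1, Dcn and Lum lay below 1 TPM in both groups, and of the 7 tested, Vim, which encodes vimentin, fell (1969 ± 58.5 TPM in siHk2 and 2365 ± 51.2 TPM in siControl, limma adjusted p = 0.0110) and 6 did not pass. The median log2 fold change of the 7 was 0.20 and 5 had values above 0, among them Col1a1 (0.63), Fn1 (0.32) and Col1a2 (0.15); for Col1a2, a collagen gene, every siHk2 library lay above every siControl library (adjusted p = 0.0507).

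Transcripts of the pore and its receptors were mostly somewhat lower in siHk2 cells. Of the 52 members whose mean over all libraries reached 1 TPM, 17 fell, Ranbp2 rose and 34 did not pass the threshold, an adjusted p under 0.05 in limma with Benjamini-Hochberg adjustment over all 13341 genes tested. Thus 34.6% of the tested members changed, against 13.6% of all tested genes, of which 7.42% were lower and 6.15% higher. Among the 7720 tested genes with a mean at or above that of the lowest tested member (17.7 TPM), 11% were lower and 7.97% higher. The median log2 fold change of TPM + 1 was -0.14 over the tested members and 0.0066 over all tested genes, and 43 of the 52 members had a value below 0. In 32 members the siHk2 libraries all lay below the siControl libraries, and in 3 they lay above, against 18.1% and 17.6% of all tested genes; groups without overlap in either direction made up 35.7% of all tested genes. At an unadjusted p under 0.05, 30 of the 52 members passed, against 30.7% of all tested genes. In bulk RNA, fewer cells of a type and less RNA per cell cannot be told apart.

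The changes were small. Among the members that fell, log2 fold changes ran from -0.67 (Seh1l) to -0.21 (Nup54), or 37.2% to 13.5% lower on the means. The summed level of all members was 4758, 4761 and 4767 TPM in the siHk2 libraries, against 5305, 5236 and 5481 TPM in the siControl libraries. The groups did not overlap, and the siHk2 mean was 10.8% lower. The number of members that fell depended on the libraries and the variance model. Leaving out siControl library 4 gave 11, and leaving out siHk2 library 1, 2 or 3 gave 9, 10 or 11. The number was 27 when libraries were weighted by their quality and 12 without a trend of variance on mean. With a library left out, 506 to 2129 of all tested genes were called, against 1810 with all 6 libraries. For 9 members the call held under all 16 alternative settings (other pseudocounts, filters, variance models, scalings, library weights and each library left out), and these were Seh1l, Nup43, Nup85, Nup93, Aaas, Cse1l, Kpnb1, Rangap1 and Ranbp1.

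**Figure D1:**
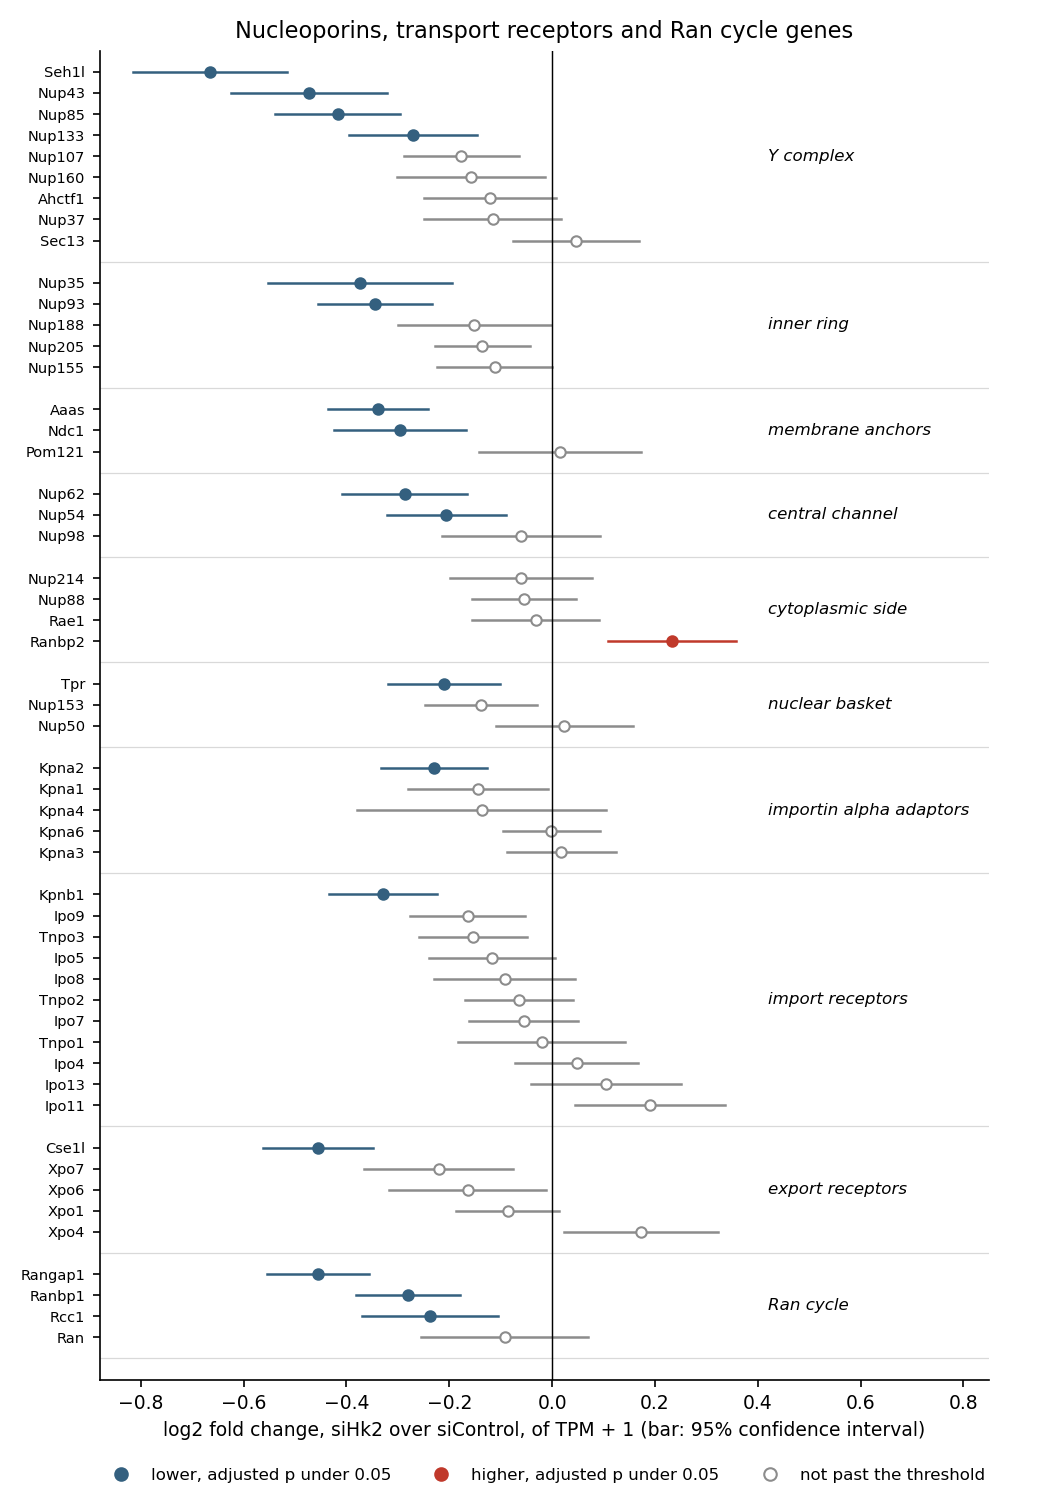
Log2 fold change of TPM + 1, siHk2 over siControl, for the 52 tested members grouped by role, with 95% confidence intervals from limma (3 libraries per group). Filled points passed an adjusted p of 0.05. Most points lie left of 0, from -0.67 for Seh1l to 0.23 for Ranbp2.

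Cell cycle genes were lower in the same libraries. In the S phase list 24 of 28 genes passed the threshold as lower (median log2 fold change -0.47), and in the G2 and M list 26 of 28 (median -0.43). All 28 genes of each list had a log2 fold change below 0. Of all tested genes, 7.42% passed as lower. Their summed levels were 1853 to 1936 TPM in siHk2 and 2576 to 2643 TPM in siControl for S phase, and 2596 to 2828 TPM in siHk2 and 3527 to 3857 TPM in siControl for G2 and M. The members' median of -0.14 lay between these and the 0.0066 of all genes. The part of cell cycle state in the members' levels was not tested.

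**Figure D2:**
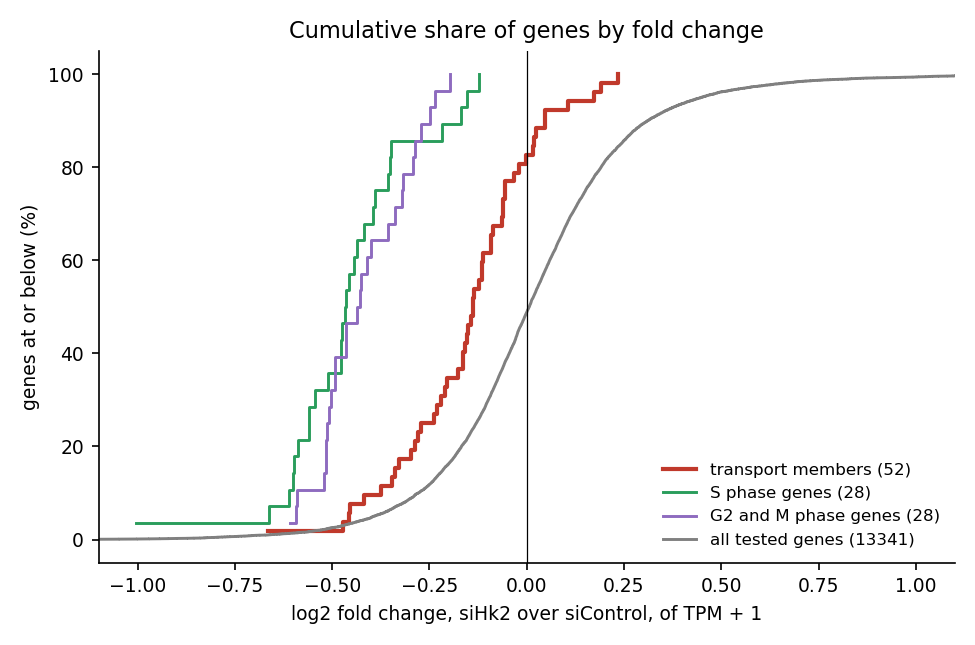
Cumulative share of genes, in percent, at or below a log2 fold change of TPM + 1, siHk2 over siControl, for the 52 tested members, 28 S phase genes, 28 genes of the G2 and M phases and all 13341 tested genes (horizontal axis trimmed at both ends). Over most of its range the members' curve lies between those of the cell cycle genes and that of all genes, with medians of -0.14 for the members, -0.47 for S phase, -0.43 for G2 and M and 0.0066 for all genes.

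Among markers of other cell types, the epithelial and the glial and neuronal sums were higher in every siHk2 library than in any siControl library, and the other sums overlapped or were near 0. Summed levels of 6 macrophage and leukocyte markers were 53.9 to 60.1 TPM in siHk2 and 54.5 to 77.4 TPM in siControl, with Ptprc at 0.0033 TPM in siHk2 and 0.053 TPM in siControl on average. The 5 endothelial markers summed to 0.68 to 0.75 TPM in siHk2 and 0.26 to 0.83 TPM in siControl. The 5 epithelial markers with values summed to 2.91 to 3.66 TPM in siHk2 and 0.86 to 1.88 TPM in siControl. Krt14 averaged 1.59 TPM in siHk2 and 0.62 TPM in siControl, and Krt8 1.39 and 0.167 TPM. Epcam averaged 0 TPM in siHk2 and 0.053 TPM in siControl, and Cdh1 0.03 and 0.05 TPM. The 4 glial and neuronal markers summed to 137 to 148 TPM in siHk2 and 89.9 to 94.9 TPM in siControl. Nearly all of this came from S100b (143 TPM in siHk2 and 90.2 TPM in siControl on average). The defining marker Sox10 lay at 0.023 TPM in siHk2 and 0.017 TPM in siControl on average. The 4 adipocyte markers summed to 306 to 377 TPM in siHk2 and 195 to 340 TPM in siControl. Nearly all of this came from Fabp4 (331 TPM in siHk2 and 259 TPM in siControl on average). Adipoq averaged 0.05 TPM in siHk2 and 0.197 TPM in siControl, and Plin1 0.397 and 0.187 TPM. The 2 hepatocyte markers with values stayed under 1 TPM in every library. The 2 skeletal muscle markers with values summed to 85.6 to 107 TPM in siHk2 and 79.98 to 110 TPM in siControl. Des averaged 97.4 TPM in siHk2 and 95.25 TPM in siControl, and Myh3 0.21 and 0.18 TPM. Of these markers S100b and Cidec, a lipid droplet protein, passed the test as higher. The part of these markers in the members' levels was not tested.

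The Y complex, the scaffold unit of the outer rings, held the member with the largest fall. Of its 9 genes 4 fell, 5 did not pass, and the summed level was 540, 543 and 522 TPM in the siHk2 libraries, against 614, 638 and 642 TPM in the siControl libraries. Seh1l, a beta-propeller subunit that also belongs to the GATOR2 complex upstream of mTORC1, had 65.7, 67.9 and 57.9 TPM in siHk2 and 103, 101 and 101 TPM in siControl. The control libraries lay close together and well above all siHk2 libraries. The standard error (SE) of the fold change was smaller than the change (log2 fold change -0.67, SE 0.0637, limma adjusted p = 0.00222). Positions are those of the table, whose build is GRCm39 (submitters' processing notes); Seh1l lies on chromosome 18, 67907946 to 67928557, plus strand.

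Nup43 and Nup85 fell as well. Nup43, a beta-propeller at the arms of the Y, had 30.2, 28.7 and 28.9 TPM in the siHk2 libraries, against 38.5, 40.5 and 44.2 TPM in the siControl libraries (log2 fold change -0.47, SE 0.0648, limma adjusted p = 0.00627). Nup85, which binds Seh1l, had 74.3, 79.9 and 75.4 TPM in siHk2 and 97.5, 105 and 105 TPM in siControl (log2 fold change -0.42, SE 0.0518, limma adjusted p = 0.00461). In both genes the groups were well apart. Nup133, at the stem of the Y, had 29.9, 31.8 and 31.1 TPM in the siHk2 libraries, against 37.2, 36.6 and 38.8 TPM in the siControl libraries, a narrower gap (log2 fold change -0.27, SE 0.0532, limma adjusted p = 0.0191); this call was lost in 4 of 16 settings.

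The other Y complex genes did not pass. Nup107, the partner of Nup133 in the stem, stood just outside the threshold with 83.5 ± 2.57 TPM in siHk2 and 94.5 ± 3.53 TPM in siControl (log2 fold change -0.18, adjusted p = 0.0516). Nup160, Ahctf1 (ELYS, which seats new pores on chromatin) and Nup37 had log2 fold changes of -0.16, -0.12 and -0.12. Sec13, which is shared with the COPII coat of the secretory pathway, was the most abundant gene of the complex. It had 167, 161 and 156 TPM in siHk2 and 147, 164 and 158 TPM in siControl, with overlapping groups (log2 fold change 0.046, SE 0.0523, limma adjusted p = 0.602). Within this complex the log2 fold changes thus spanned -0.67 to 0.046, and no test of Seh1l against Sec13 was made.

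In the inner ring, 2 of 5 genes fell and all 5 had values below 0. Nup93, which links the scaffold to the channel, had 99.6, 92.3 and 96.9 TPM in the siHk2 libraries, against 126, 122 and 119 TPM in the siControl libraries. All siHk2 libraries were below the lowest control library (log2 fold change -0.34, SE 0.0474, limma adjusted p = 0.00627). Nup35, which can bend the membrane, had 34.0, 36.2 and 39.5 TPM in siHk2 and 50.9, 44.1 and 48.0 TPM in siControl (log2 fold change -0.37, SE 0.0764, limma adjusted p = 0.0217). The large scaffold genes Nup205, Nup188 and Nup155 did not pass, with log2 fold changes of -0.14, -0.15 and -0.11. For Nup35, 44.9% of the 50-base windows of its longest annotated transcript also occur in transcripts of Dusp19 or Gm4353, and its call was lost in 4 of 16 settings, so its level is uncertain.

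Among the membrane anchors, Aaas and Ndc1 fell. Ndc1 spans the pore membrane and recruits Aaas, the protein known as ALADIN. Aaas had 144, 151 and 143 TPM in the siHk2 libraries, against 185, 188 and 181 TPM in the siControl libraries, with no overlap (log2 fold change -0.34, SE 0.0420, limma adjusted p = 0.00461). Ndc1 had 74.9, 81.7 and 79.1 TPM in siHk2 and 101, 97.6 and 91.7 TPM in siControl (log2 fold change -0.30, SE 0.0548, limma adjusted p = 0.0156), a call lost in 3 of 16 settings. Pom121, another integral membrane nucleoporin, averaged 78.1 ± 1.87 TPM in siHk2 and 77.5 ± 6.61 TPM in siControl (log2 fold change 0.016, 95% confidence interval -0.14 to 0.17, adjusted p = 0.900). The remaining membrane nucleoporin, Nup210, was barely detected, at 0.597 ± 0.215 TPM in siHk2 and 0.617 ± 0.0379 TPM in siControl, and its relative Nup210l averaged 0.763 ± 0.110 TPM in siHk2 and 0.570 ± 0.318 TPM in siControl. Both lay under the filter and were not tested.

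The FG nucleoporins of the central channel fell in part. Nup62, the core of the channel complex, had 126, 131 and 138 TPM in the siHk2 libraries, against 154, 169 and 159 TPM in the siControl libraries (log2 fold change -0.29, SE 0.0521, limma adjusted p = 0.0148), a call lost in 2 of 16 settings. Nup54, its partner, had 53.5, 49.8 and 52.9 TPM in siHk2 and 61.7, 58.8 and 59.9 TPM in siControl (log2 fold change -0.21, SE 0.0497, limma adjusted p = 0.0360); this call was lost in 7 of 16 settings. Neither gene had overlapping groups. Nup98, whose transcript also encodes the scaffold protein Nup96, had 32.5, 30.8 and 31.8 TPM in the siHk2 libraries, against 36.0, 31.7 and 31.8 TPM in the siControl libraries, with overlap (log2 fold change -0.061, SE 0.0656, limma adjusted p = 0.578). Nup62cl, a relative of Nup62, was at 0.18 TPM in siHk2 library 2 and listed at 0 in the other 5 libraries, and was not tested. Nup58, the other channel partner, was not analysed here.

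On the cytoplasmic side, Ranbp2 was higher and its neighbours did not pass. Ranbp2 (Nup358) forms the cytoplasmic filaments, binds SUMO-modified Rangap1 and acts as a SUMO ligase. It had 63.9, 65.9 and 66.9 TPM in siHk2 and 55.8, 52.7 and 58.5 TPM in siControl. Every siHk2 library was above every siControl library (log2 fold change 0.23, SE 0.0535, limma adjusted p = 0.0306). Ranbp2 lies on chromosome 10, 58282742 to 58330178, plus strand. The call was lost in 6 of 16 settings, and adjusted p-values over the settings ran from 0.00533 to 0.118. Nup88, Nup214 and Rae1, which serve mRNA and protein export at this face, had log2 fold changes of -0.055, -0.06 and -0.032, with adjusted p-values from 0.436 to 0.730. Nup42, listed in the table under the older symbol Nupl2 and so outside the rule, averaged 28.3 ± 1.58 TPM in siHk2 and 29.1 ± 0.688 TPM in siControl (adjusted p = 0.690).

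In the nuclear basket, Tpr fell. Tpr, the long coiled-coil protein of the basket, had 80.9, 81.7 and 79.5 TPM in the siHk2 libraries, against 97.8, 92.7 and 90.2 TPM in the siControl libraries (log2 fold change -0.21, SE 0.0464, limma adjusted p = 0.0274). The groups did not overlap, and the call was lost in 5 of 16 settings. Nup153, which anchors Tpr, averaged 59.8 ± 2.07 TPM in siHk2 and 65.9 ± 1.08 TPM in siControl and did not pass (log2 fold change -0.14, adjusted p = 0.0909). Nup50, a mobile basket protein that helps release importin alpha from its cargo, averaged 93.3 ± 3.63 TPM in siHk2 and 91.8 ± 5.36 TPM in siControl (log2 fold change 0.024, adjusted p = 0.816).

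**Figure D3:**
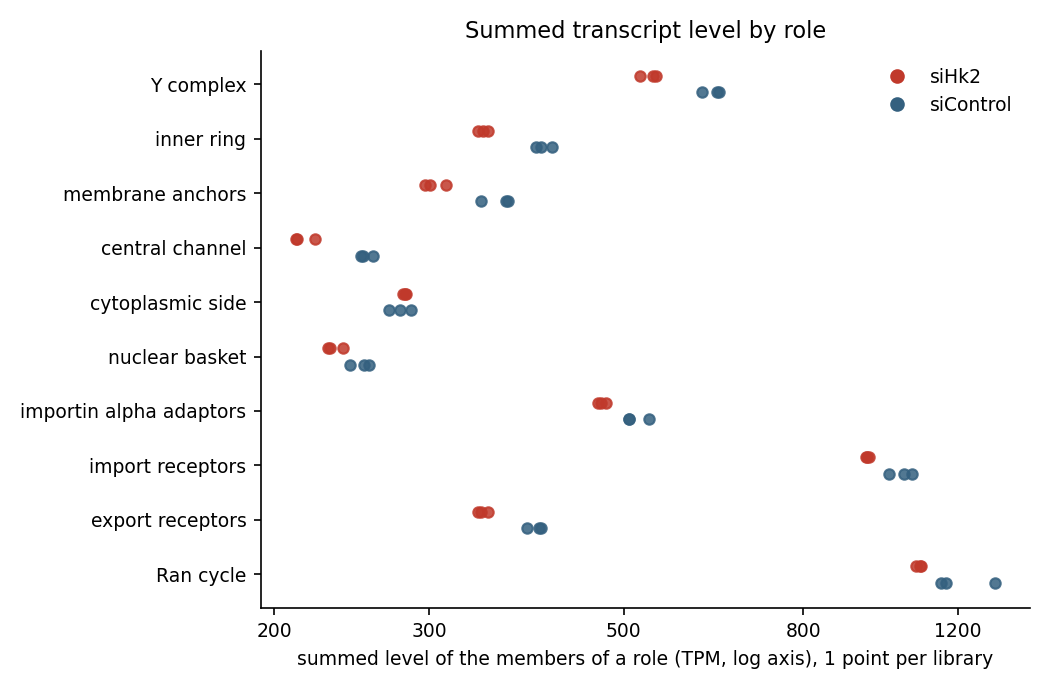
Summed level in TPM (log axis) of the members of each role, 1 point per library, siHk2 above siControl. The Y complex lies at 522 to 543 TPM in siHk2 and 614 to 642 TPM in siControl, while the points of the cytoplasmic side, 280 to 283 TPM in siHk2 and 270 to 286 TPM in siControl, overlap.

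Import of proteins with a classical nuclear localisation signal uses importin beta (Kpnb1) with an importin alpha adaptor (Kpna genes), and the adaptor returns to the cytoplasm on the exportin Cse1l (CAS). Kpnb1 and Cse1l fell, as did Kpna2, 1 of the 5 tested adaptors. Kpnb1 had 279, 262 and 265 TPM in siHk2 and 340.4, 325 and 347 TPM in siControl, without overlap (log2 fold change -0.33, SE 0.0448, limma adjusted p = 0.00612). Cse1l had 97.2, 99.7 and 102 TPM in the siHk2 libraries, against 142, 132 and 137 TPM in the siControl libraries, also without overlap (log2 fold change -0.45, SE 0.0457, limma adjusted p = 0.00241). Kpnb1 lies on chromosome 11, 97050540 to 97078707, minus strand, and Cse1l on chromosome 2, 166747960 to 166788309, plus strand. Kpna2, the most abundant importin alpha transcript here, had 216, 228 and 222 TPM in siHk2 and 251, 259 and 270.4 TPM in siControl (log2 fold change -0.23, SE 0.0442, limma adjusted p = 0.0177). For Kpna2, 92.4% of the 50-base windows of its transcript recur in 12 other annotated genes, among them Kpna2-ps. Its level is therefore uncertain, and its call was lost in 4 of 16 settings.

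The other importin alpha adaptors did not pass. Kpna3 and Kpna6 had the smallest changes among the adaptors: Kpna3 averaged 95.03 ± 3.63 TPM in siHk2 and 93.8 ± 1.48 TPM in siControl, and Kpna6 averaged 90.2 ± 1.84 TPM in siHk2 and 90.3 ± 0.945 TPM in siControl. Their 95% confidence intervals on the log2 scale were -0.088 to 0.12 and -0.10 to 0.093. Kpna1 and Kpna4 had log2 fold changes of -0.14 and -0.14. Kpna7, which is known from oocytes and early embryos, lay at 0.130 ± 0.113 TPM in siHk2 and 0.170 ± 0.131 TPM in siControl and was not tested.

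The other import receptors, which bind their cargo directly, did not pass. Of 11 import receptors, Kpnb1 fell and 10 did not pass; 4 of the 11 had an unadjusted p under 0.05, a share near the 30.7% of all tested genes. The transportin genes Tnpo1, Tnpo2 and Tnpo3 had log2 fold changes of -0.02, -0.064 and -0.15. Ipo9, a histone importin, was at 75.4 ± 2.53 TPM in siHk2 and 84.6 ± 2.71 TPM in siControl (adjusted p = 0.0627), and Ipo5, an importin of ribosomal proteins and histones, at 130.3 ± 7.15 TPM in siHk2 and 141 ± 4.25 TPM in siControl (adjusted p = 0.184). Ipo11 leaned the other way, with 44.0, 48.0 and 48.2 TPM in the siHk2 libraries, against 40.9, 38.6 and 43.0 TPM in the siControl libraries. Its groups did not overlap, but it missed the threshold (log2 fold change 0.19, adjusted p = 0.0857). Ipo4, Ipo7, Ipo8 and Ipo13 had log2 fold changes of 0.048, -0.056, -0.092 and 0.11, and 59.5% of the windows of Ipo4 recur in the overlapping gene Gm49378.

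Of the 5 export receptors, Cse1l fell and 4 did not pass. Xpo1 (CRM1), the receptor for leucine-rich export signals, was the most abundant of them. It had 188, 182 and 190.0 TPM in siHk2 and 196, 193 and 206 TPM in siControl, a gap of 5.88% (log2 fold change -0.087, SE 0.0427, limma adjusted p = 0.220). The groups were apart, but by little. Xpo7 was just outside the threshold at 16.2 ± 0.167 TPM in siHk2 and 19.1 ± 0.758 TPM in siControl (adjusted p = 0.0568), and Xpo6, the exportin of actin and profilin, was at 21.4 ± 0.972 TPM in siHk2 and 24.1 ± 1.14 TPM in siControl (adjusted p = 0.138). Xpo4, which exports eIF5A and the transcription factor Smad3, was at 20.7 ± 1.14 TPM in siHk2 and 18.3 ± 0.125 TPM in siControl, with siHk2 above siControl in every library (log2 fold change 0.17, adjusted p = 0.117).

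The genes that set the state of Ran fell, while Ran itself did not pass. Rangap1, which makes Ran hydrolyse GTP, had 94.7, 94.5 and 98.4 TPM in the siHk2 libraries, against 132, 128 and 135 TPM in the siControl libraries. The 3 siHk2 libraries lay far below the control libraries (log2 fold change -0.46, SE 0.0424, limma adjusted p = 0.00222). Rangap1 lies on chromosome 15, 81588449 to 81629731, minus strand. Ranbp1, which helps Rangap1 take Ran off the receptors, had 111, 117 and 118 TPM in siHk2 and 139, 139 and 143 TPM in siControl (log2 fold change -0.28, SE 0.0433, limma adjusted p = 0.00895). Rcc1, the exchange factor on chromatin, had 56.5, 57.8 and 51.7 TPM in the siHk2 libraries, against 65.2, 63.6 and 67.4 TPM in the siControl libraries (log2 fold change -0.24, SE 0.0567, limma adjusted p = 0.0343); this call was lost in 7 of 16 settings.

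Ran was by far the most abundant member. It had 825, 805 and 822 TPM in siHk2 and 828, 819 and 976 TPM in siControl. Control library 6 stood above the other 5 libraries, which lay between 805 and 828 TPM. The log2 fold change of Ran was -0.093 (95% confidence interval -0.26 to 0.071, adjusted p = 0.419), and it was -0.011 without siControl library 6. Summed without Ran, the members came to 3932 to 3956 TPM in siHk2 and 4417 to 4504 TPM in siControl.

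**Figure D4:**
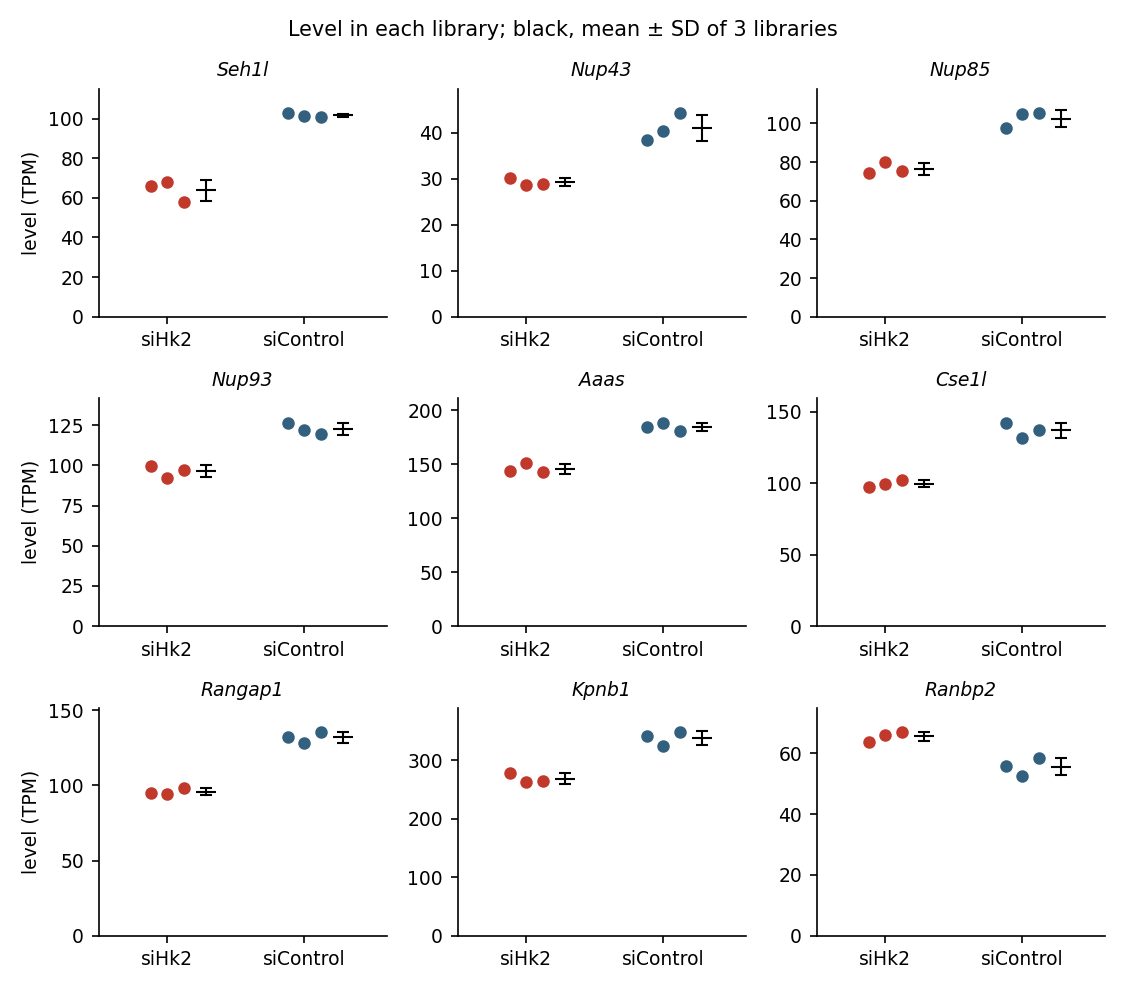
Level in TPM of 9 members in each library, siHk2 left and siControl right, with the mean ± SD of 3 libraries in black; each vertical axis starts at 0. In the first 8 panels every siHk2 library lies below every siControl library, and for Ranbp2 (63.9 to 66.9 TPM in siHk2, 52.7 to 58.5 TPM in siControl) every siHk2 library lies above.

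Promoters of 4 of these genes are shown because they stand for the Ran cycle, the import receptors, the channel and the member that rose. RefSeq (build GRCm38.p6) gave a promoter of 300 bases, 250 before and 50 after the annotated start, for 45 of the 56 members, without Cse1l, Kpna1, Kpna3, Kpna6, Nup210l, Nup35, Nup43, Nup85, Seh1l, Xpo4 and Xpo7. Capitals mark matches, on either strand, to the E2F site (TTTCCCGC or TTTGGCGC), the CHR element of cell cycle genes (TTTGAA), the CCAAT box (CCAAT), the NRF1 site, the E-box (CACGTG) and the SP site (GGGCGGG). The ETS site (CCGGAAGT) and the YY1 site were searched too.
Ranbp1, chr16:18248645-18248944, minus strand: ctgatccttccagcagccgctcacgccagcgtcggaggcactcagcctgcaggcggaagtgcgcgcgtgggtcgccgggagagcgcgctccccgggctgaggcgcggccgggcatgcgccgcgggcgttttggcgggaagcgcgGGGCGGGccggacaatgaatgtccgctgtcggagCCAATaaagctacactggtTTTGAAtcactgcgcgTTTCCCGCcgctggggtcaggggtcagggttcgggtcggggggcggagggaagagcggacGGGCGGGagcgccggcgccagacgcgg
Kpnb1, chr11:97187843-97188142, minus strand: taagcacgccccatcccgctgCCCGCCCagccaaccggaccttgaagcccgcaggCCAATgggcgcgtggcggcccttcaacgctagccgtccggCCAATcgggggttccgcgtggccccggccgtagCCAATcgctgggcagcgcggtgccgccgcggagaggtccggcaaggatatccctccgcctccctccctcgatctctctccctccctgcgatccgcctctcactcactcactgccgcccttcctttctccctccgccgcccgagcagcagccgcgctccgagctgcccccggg
Nup62, chr7:44815838-44816137, plus strand: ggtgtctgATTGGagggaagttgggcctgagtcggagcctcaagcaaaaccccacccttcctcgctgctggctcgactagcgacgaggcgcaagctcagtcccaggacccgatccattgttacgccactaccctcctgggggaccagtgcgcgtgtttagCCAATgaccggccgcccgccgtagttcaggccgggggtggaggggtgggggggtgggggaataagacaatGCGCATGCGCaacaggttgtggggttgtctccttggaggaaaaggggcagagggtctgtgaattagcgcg
Ranbp2, chr10:58446602-58446901, plus strand: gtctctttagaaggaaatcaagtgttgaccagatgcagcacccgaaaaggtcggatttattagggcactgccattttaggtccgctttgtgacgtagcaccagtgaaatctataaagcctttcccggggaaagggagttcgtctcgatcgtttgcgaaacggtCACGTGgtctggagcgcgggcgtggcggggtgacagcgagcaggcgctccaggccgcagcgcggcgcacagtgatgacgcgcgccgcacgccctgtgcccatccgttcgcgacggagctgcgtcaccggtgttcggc

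In the Ranbp1 promoter an E2F site began 37 bases before the start, behind a CHR element at 53 bases, a CCAAT box at 72 bases and an SP site at 106 bases, with another SP site 23 bases after the start. The Kpnb1 promoter held 3 CCAAT boxes, at 122, 155 and 195 bases before the start, and an SP site on the opposite strand at 229 bases. In Nup62 the palindromic NRF1 site lay 20 bases before the start and a CCAAT box 90 bases before it, with another on the opposite strand at 242 bases. The Ranbp2 promoter held an E-box 87 bases before the start and none of the other motifs. A match of letters is a description and not a bound site.

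Across the 45 promoters, some motifs were more frequent than in the RefSeq table as a whole. That table holds 27025 genes, whether or not expressed in these cells, and no share over tested genes alone was computed. SP sites were found in 53.3% of the members and 27.9% of all genes with a promoter, CCAAT boxes in 48.9% against 41.1%, and CHR elements in 31.1% against 20.2%. NRF1 sites were found in 13.3% of the members and 5.19% of all genes, ETS sites in 15.6% against 4.31%, E-boxes in 17.8% against 8.09%, and YY1 sites in 8.89% against 0.755%. E2F sites of the TTTCCCGC form were found in 4.44% of the members, which were Ranbp1 and the untested Nup210, and in 1.24% of all genes; the TTTGGCGC form was found in no member and 0.585% of all genes. The CHR element stood in 6 of the 12 members with a promoter that fell (Ranbp1, Rangap1, Rcc1, Kpna2, Ndc1 and Tpr) and in 7 of the 29 that did not pass. The SP site stood in 5 of those 12 and in 18 of those 29. The CCAAT box stood in 6 of those 12 and 14 of those 29, and the YY1 site in 0 and 4. NRF1 sites stood in 1 and 5, ETS sites in 2 and 5, and E-boxes in 2 and 5. No test was made on these counts.

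The short sequence GGAGACT is shown because it was more frequent in transcripts that were lower in an earlier scan of the same fold changes, so it gives no independent support. Counted in the longest annotated 3' untranslated region (UTR) of GENCODE M21, it was present in 4 of the 52 tested members and in 11.98% of 11502 tested genes that have an annotated one. The 4 members were Seh1l and Cse1l, which fell, and Tnpo1 and Kpna1, which did not pass (median log2 fold change -0.30). Sites on chromosomes 2, 13 and 16 are given with the match in capitals (GRCm38 transcripts).
Cse1l, chromosome 2: gccttgactgtGGAGACTtaatttctat
Tnpo1, chromosome 13, first site: ccgtcagtcttGGAGACTatgggagcct
Tnpo1, chromosome 13, second site: acacttggtatGGAGACTcgactgaaaa
Kpna1, chromosome 16: gaacacagttaGGAGACTtggctgtggg

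Of the members without this sequence, 15 fell and Ranbp2 rose (median log2 fold change over the 48: -0.14). The core GAGACT was in 19 members, with a median of -0.14, and absent from 33, with a median of -0.15. Over all tested genes with a UTR, the median was -0.044 with GGAGACT and 0.0062 without it.

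Other genes of nuclear transport, which the name rule does not take in, were read from the same test. Of 54 further genes that the table annotates to the KEGG pathway of nucleocytoplasmic transport, 49 were tested, 6 fell, none rose and 43 did not pass; the median log2 fold change was -0.061. The 12.2% that fell stand beside 7.42% of all tested genes and 11% of those at the members' levels. The lowest of the 49 averaged 1.635 TPM, below those levels. An unadjusted p under 0.05, in either direction, was found for 17 of the 49, beside 30.7% of all tested genes. In 17 of the 49 the siHk2 libraries all lay below the siControl libraries, and in 5 they lay above. The shares of all tested genes were 18.1% and 17.6%, and the differences were not tested. Alyref, an adaptor that loads mRNA onto the export receptor, averaged 98.7 ± 1.25 TPM in siHk2 and 121 ± 6.44 TPM in siControl (adjusted p = 0.0113). Upf3b and Rbm8a, proteins of the exon junction complex and of nonsense-mediated decay, averaged 43.6 ± 1.63 TPM in siHk2 and 52.5 ± 0.977 TPM in siControl (adjusted p = 0.0166) and 55.2 ± 2.72 TPM in siHk2 and 64.9 ± 1.75 TPM in siControl (adjusted p = 0.0315). Thoc3, a subunit of the THO complex that acts in mRNA export, averaged 60.2 ± 1.28 TPM in siHk2 and 70.7 ± 3.09 TPM in siControl (adjusted p = 0.0264). In a listed set of 26 genes of mRNA export and cap binding, which overlaps the KEGG set, 3 fell (Alyref, Thoc3 and Zc3h18) and 23 did not pass, and the median was -0.079. The 11.5% that fell stand beside the same 7.42% and 11%, and no test of the difference from the members was made. The lowest of the 26 averaged 12.8 TPM, below the members' levels.

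Among 15 tested transport factors and SUMO enzymes outside the rule, 6 fell and 9 did not pass, with a median of -0.14. The 40% that fell stand beside 7.42% of all tested genes and 11% of those at the members' levels. The lowest of the 15 averaged 1.14 TPM, below those levels. Mad1l1, the checkpoint protein that docks at the basket through Tpr, averaged 41.0 ± 1.84 TPM in siHk2 and 52.1 ± 2.94 TPM in siControl (adjusted p = 0.0148). Nutf2 (NTF2), which carries Ran back into the nucleus, averaged 120.2 ± 2.00 TPM in siHk2 and 145 ± 11.1 TPM in siControl (adjusted p = 0.0303). Hikeshi, the importer of Hsp70, averaged 15.5 ± 0.924 TPM in siHk2 and 19.7 ± 1.22 TPM in siControl (adjusted p = 0.0312), and Tmem209, an envelope protein, averaged 57.2 ± 2.33 TPM in siHk2 and 72.1 ± 4.93 TPM in siControl (adjusted p = 0.0179).

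The nuclear lamina and envelope, in which the pores sit, held falls as well. Of 19 tested genes, 7 fell, Tor1aip1 rose and 11 did not pass, with a median of -0.15. Here 36.8% fell, beside 7.42% of all tested genes and 11% of those at the members' levels. The lowest of the 19 averaged 6.96 TPM, below those levels. The B-type lamin gene Lmnb2 averaged 76.8 ± 4.85 TPM in siHk2 and 103 ± 1.80 TPM in siControl (adjusted p = 0.00540) and Lmnb1 averaged 141 ± 7.14 TPM in siHk2 and 184 ± 14.3 TPM in siControl (adjusted p = 0.0126). Tmpo, the lamina-associated polypeptide LAP2, averaged 122 ± 1.49 TPM in siHk2 and 155 ± 7.31 TPM in siControl (adjusted p = 0.00587). Emd, which encodes emerin of the inner membrane, averaged 54.4 ± 2.57 TPM in siHk2 and 76.9 ± 6.77 TPM in siControl (adjusted p = 0.00767).

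Of the 52 tested members, 30 share no 50-base window with transcripts of other genes, and 45 share under 7% of their windows. Ran shares 15.4% (with AC154779.1, Gm13461 and Rasl2-9) and Tnpo1 14.1% (with Gm6493). Shares above 20% were found for Kpna2, Ipo4 and Nup35, given above, and for Ranbp1 (24.3%, in Gm49776 and Gm5391) and Nup54 (20.3%, in Gm15790), whose levels are uncertain to that extent. Of the 18 members that changed, 9 overlap a gene on the opposite strand in the table, as do 21 of all 52 tested members. Among the 9 are Ranbp1 with Trmt2a, Rangap1 with Zc3h7b and Nup43 with Pcmt1. The library protocol describes a strand-specific variant, but how strand was treated in counting is unknown here, so reads of such pairs may not have been separated. On the same strand, 4 of the 18 and 8 of all 52 tested members overlap another gene. The 4 are Rcc1 with Snhg3, Cse1l with Gm17096, Nup62 with Il4i1 and Nup35 with Dusp19. Strand cannot separate the reads of same-strand pairs.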

How the data were processed

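RNA of mouse embryonic fibroblasts was sequenced on a BGI platform from poly(A)-selected libraries primed with random hexamers, per the labels' protocols. The authors deposited 1 table of TPM with 22355 genes and 6 libraries, rounded to 2 decimals. Per the submitters' processing notes, the genome was GRCm39 (mm39). No aligner, counter or annotation release is named in the sources available, and none is assumed. TPM is scaled to the same total in each library, so a shift in abundant genes moves all others, and depth is unknown. The siHk2 columns match sample titles, and the siControl columns show only their group.

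The 13341 genes whose mean reached 1 TPM entered limma (3.58.1, R 4.3.3) as log2(TPM + 1). The moderated test used a trend of variance on mean, had no covariate and was two-sided, with Benjamini-Hochberg adjustment and a threshold of 0.05. The pseudocount makes fold changes of low genes too small. The fit was also run on simulated data. The changes planted there were larger than those of most members that passed, so that run does not cover changes of their size. Levels are means ± SD (n = 3 per group).

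The members and gene lists were chosen with earlier results of these data known. Values named are those of members that passed, of the most abundant and the least changed tested member of each role, and of up to 4 genes with the smallest p in each list outside the rule; further members are named to account for the set, and Tor1aip1 was named after its values were seen. The values of 1 gene of the lists outside the rule are not reported here. Promoters came from RefSeq (GRCm38.p6), matched by gene symbol. Transcripts and UTRs came from GENCODE M21 (GRCm38), matched by gene identifier, and no coordinate was carried between builds. Sequence work used Python 3.11.15 with pandas 2.3.3, and figures matplotlib 3.10.9.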

Additional observations from a re-analysis of the deposited data

How the results depend on the processing

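Results were recomputed under 16 alternatives. The median log2 fold change of the members stayed between -0.14 and -0.13 in all of them. The median of all tested genes, 0.0066, was 0.0063, -0.0065 and 0.0093 under the median-of-ratios, quantile and protein-coding scalings. The 17 falls became 12 with no mean-variance trend, 27 with library weights and 9 to 16 with a library left out. The rise of Ranbp2 was the single rise; the count of rises was 0 with no mean-variance trend, 3 with library weights and 0 to 1 with a library left out. The number of all tested genes called, 1810, was 1186 with no filter, 1057 with no trend, 4040 with library weights and 506 to 2129 with a library left out. The causes were not tested. The 18 calls kept their sign in every setting. Signs changed for members that had not passed: Kpna6 was at 0.021 with quantile normalization, 0.0014 on the protein-coding total and 0.012 with library weights, and -0.017 to 0.012 with a library left out. Pom121 was at -0.034 with library weights and -0.056 to 0.059 with a library left out, Rae1 at -0.082 to 0.0023, Nup50 at -0.018 to 0.066 and Tnpo1 at -0.079 to 0.042. No paired analysis was possible because the numbers of the control columns are not those of any control title.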
